A study of Mus musculus with 2 samples.

Results

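Secreted growth factors are among the proteins by which monocytes and macrophages act on the cells around them. The 10 genes described here encode such factors: Igf1, Pdgfa, Pdgfb, Vegfa, Hgf, Csf1, Osm, Hbegf, Areg and Grn. They were chosen by name, with earlier results of these data known. All 10 were found in a table of 47643 mouse genes measured by RNA sequencing in 2 libraries, 1 per group. The first library came from macrophages derived from bone marrow monocytes with lysophosphatidic acid (LPA), a phospholipid that signals through cell surface receptors. The second came from bone marrow monocytes. Both groups were wild-type C57BL/6 mice aged 6 weeks, and the sources used here do not state whether the groups shared animals, whether mice were pooled or for how long cells were cultured. No library came from a culture without LPA, so effects of LPA, of culture and of differentiation cannot be told apart.

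Growth factors of this kind work by binding receptors on the cell that made them or on neighbours. IGF-1 and the PDGF chains drive growth of mesenchymal cells, VEGF-A drives growth of blood vessels and HGF acts on epithelia. CSF-1 keeps macrophages alive, oncostatin M is an inflammatory cytokine of the interleukin-6 family, and HB-EGF and amphiregulin are ligands of the EGF receptor that are shed from the cell surface. Progranulin, the product of Grn, is both secreted and carried to lysosomes.

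The macrophage library held 16726342 and the monocyte library 12473180 reads that fell uniquely on exons. Dividing each count by its library's total gives the level in CPM, where 1 read is worth 0.0598 CPM in macrophages and 0.0802 CPM in monocytes. A count of 0 allows a level of up to 0.179 CPM in macrophages and 0.241 CPM in monocytes, the worth of 3 reads. Ratios are macrophages over monocytes and carry an exact (Clopper-Pearson) 95% interval, which covers counting error only. With 1 library per group there was no replicate check and no test. A gene was called higher or lower if either library had it at 5 CPM or more and its log2(CPM + 1) differed by at least 1, a 2-fold change on that scale. The macrophage markers Adgre1, Cd68, Csf1r, Mertk, Gpnmb, C1qb and Trem2 were all higher in the macrophage library (7 of 7, summing to 22762 CPM in macrophages and 947 CPM in monocytes), led by Gpnmb (15918 CPM in macrophages, 3.29 CPM in monocytes) and Csf1r. All 6 classical monocyte markers were lower (326 CPM in macrophages and 5892 CPM in monocytes), led by Ly6c2 (59.1 CPM in macrophages, 1849 CPM in monocytes) and F13a1 (23.3 CPM in macrophages, 1373 CPM in monocytes). In bulk libraries such as these, fewer cells of a type and less RNA per cell cannot be told apart.

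Of the 10 genes, 8 reached 5 CPM in at least 1 library. Igf1, Pdgfb, Pdgfa and Grn were higher in the macrophages and Osm was lower, while Vegfa, Hgf and Csf1 lay within 2-fold. Hbegf and Areg stayed below 5 CPM in both libraries. Over all 10407 genes that reached this level, 13.8% were called higher and 19.9% lower. The median log2 difference was 1.07 over the 8 growth factor genes and -0.23 over the 10407 genes. With the 2 low genes counted in, the median of the growth factor genes was 0.54. The balance of calls over all genes depended on scaling: 1440 were higher and 2073 lower as reported, against 1806 higher and 1520 lower after centring on the median of all genes. Centring raised every log2 difference by the same shift, which brought Vegfa past 2-fold (1.08) and left Csf1 at -0.01.

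**Figure D1:**
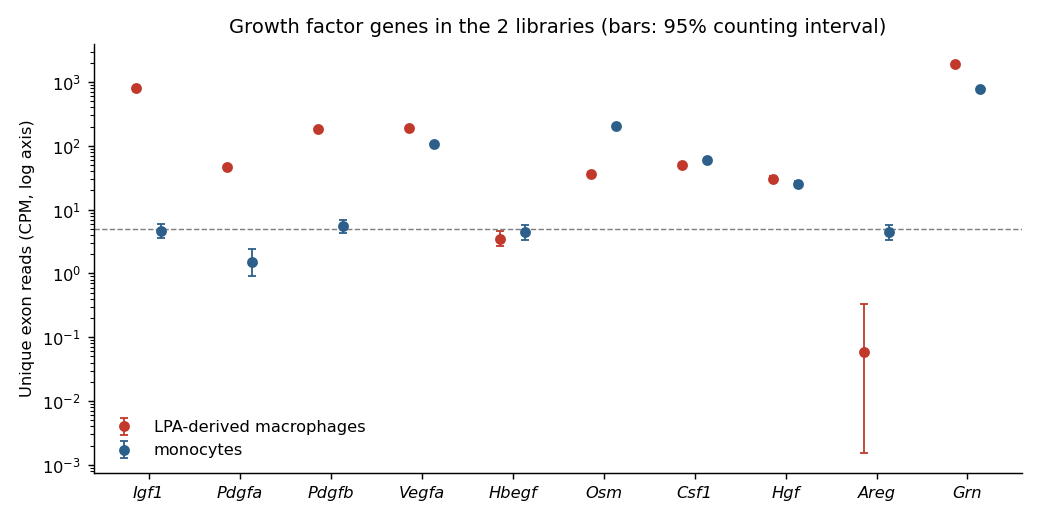
Level of each growth factor gene in the macrophage and the monocyte library, as CPM of unique exon reads on a log axis; bars are 95% counting intervals and the dashed line is 5 CPM. Igf1, Pdgfa and Pdgfb lay at 1.52 to 5.53 CPM in monocytes and at 46.2 to 813 CPM in macrophages. Osm and Areg lay higher in monocytes. By a smaller margin so did Csf1 (ratio 0.840) and Hbegf (ratio 0.800, 0.545 to 1.18).

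Promoter windows are shown for 3 genes that behaved differently: Pdgfa, higher in macrophages; Vegfa, within 2-fold; and Areg, seen almost entirely in monocytes. RefSeq promoter sequences on GRCm38.p6 were matched by symbol for 7 of the 10 genes, with 10 start sites in all. Only bases before the start site that no annotated exon covers are printed. The capitals mark matches, on either strand, to GGGCGG (GC box), GAGGAAGT (a PU.1 motif) or TGACGTCA (the cyclic AMP response element).

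Pdgfa, chr5:138994282-138994398, minus strand: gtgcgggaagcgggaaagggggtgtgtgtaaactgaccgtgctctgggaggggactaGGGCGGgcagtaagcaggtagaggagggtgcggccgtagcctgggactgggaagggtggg
Vegfa, chr17:46032378-46032627, minus strand: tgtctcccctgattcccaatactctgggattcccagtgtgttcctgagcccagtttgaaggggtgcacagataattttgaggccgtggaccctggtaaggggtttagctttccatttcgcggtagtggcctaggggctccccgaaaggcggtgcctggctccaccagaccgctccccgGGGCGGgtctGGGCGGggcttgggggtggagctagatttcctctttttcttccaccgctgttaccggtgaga
Areg, chr5:91139349-91139598, plus strand: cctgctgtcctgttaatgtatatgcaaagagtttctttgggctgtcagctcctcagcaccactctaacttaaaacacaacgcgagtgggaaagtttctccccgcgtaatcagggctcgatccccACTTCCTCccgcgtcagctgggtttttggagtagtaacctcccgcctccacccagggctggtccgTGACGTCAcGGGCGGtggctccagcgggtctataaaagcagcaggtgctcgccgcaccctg

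A GC box was present in the 250 bases before 7 of the 10 start sites, covering 5 of the 7 genes (Pdgfa, Vegfa, Csf1, Areg and Grn). It was present in 32.7% of all 32851 promoter windows of the same length, a set from which chromosome 18 was not left out. The GC content of the 10 windows ran from 50.8% to 72.4%, beside a median of 52.4% over all windows. Matches were counted over the whole window, including bases that an annotated exon covers. Exons covered part of several windows, among them those of Grn (192 bases), the second of Pdgfa (232 bases) and the Vegfa window not printed (218 bases). Areg alone among the 7 genes held the PU.1 letters, 126 bases before its start, and the cyclic AMP response element, 61 bases before it. These are found in 2.44% and 1.55% of all windows, and the second was added to the search after the sequence had been seen. TGANTCA, an AP-1 motif, was found once, in Igf1 (TGAATCA, 37 bases before the start), against 6.75% of all windows. Annotated exons cover all 250 bases of that Igf1 window. TTNNGNAA, a loose C/EBP motif, was found in 3 windows (36.8% of all windows) and CACGTG, the E-box of lysosomal genes, in 0 of 10 (6.02% of all windows). No matches overlapped each other. A match is a description of the letters and says nothing about binding in these cells.

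Igf1 encodes insulin-like growth factor 1, a growth and survival factor that macrophages release in tissue repair. The gene lies on the plus strand of chromosome 10, 87858265 to 87937042 (GRCm38). It had 13600 exon reads (813 CPM) in the macrophage library and 58 reads (4.65 CPM) in the monocyte library. Its CPM ratio was 175 (135 to 230.4). Of the 10407 genes, 11 had a larger log2 difference, so that it ranked 12th from the top. Igf1 lay above only 6.36% of those genes by CPM in monocytes but above 98.8% of them in macrophages. Reads across exon-exon junctions, which come from spliced RNA, numbered 4501 in macrophages and 21 in monocytes (ratio 160, 104 to 258.5). Intron reads numbered 1295 in macrophages and 4 in monocytes (ratio 241, 94.1 to 887). All 3 kinds of read therefore moved the same way with overlapping intervals. The authors' deposited table lists 6 of 8 annotated transcripts as detected in macrophages and 2 of 8 in monocytes, a number that also depends on how many reads there are. Igf1os, an antisense gene that overlaps Igf1 but shares none of its exon bases, had 22 reads in macrophages and 1 read in monocytes.

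Pdgfa and Pdgfb encode the A and B chains of platelet-derived growth factor, which pair into dimers that act on fibroblasts, smooth muscle cells and pericytes. Pdgfb (chromosome 15, 79995900 to 80014808, minus strand) had 3109 reads (186 CPM) in macrophages and 69 reads (5.53 CPM) in monocytes, a ratio of 33.6 (26.5 to 43.3). Pdgfa (chromosome 5, 138976014 to 138997370, minus strand) had 772 reads (46.2 CPM) in macrophages and 19 reads (1.52 CPM) in monocytes, a ratio of 30.3 (19.3 to 50.6). The chains thus differed between the libraries by ratios whose intervals overlap. Per length, the B chain was the more abundant in both: the authors' RPKM, reads scaled by exon length and library size, was 56.1 for Pdgfb and 13.03 for Pdgfa in macrophages, and 1.59 for Pdgfb and 0.410 for Pdgfa in monocytes. Intron reads of Pdgfa stood at 107 in macrophages and 14 in monocytes, a ratio of 5.70 (3.25 to 10.8), below the range of its exon ratio. For Pdgfb the intron ratio was 18.3 (11.9 to 29.9) and the junction ratio 49.8 (28.3 to 96.7). The antisense gene 6330403L08Rik shares 813 exon bases with Pdgfa and is listed with 0 exon reads in both libraries.

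Platelets and megakaryocytes also carry PDGF, and their markers moved in the same direction. Of 6 such markers, 5 were called higher in the macrophage library and none lower, and the list summed to 424 CPM in macrophages and 100.2 CPM in monocytes. Itga2b stood at 158 CPM in macrophages and 48.7 CPM in monocytes, and Pf4 at 125 CPM in macrophages and 26.2 CPM in monocytes. No marker of this list was at 0 in either library. The ratios of its members were 2.11 to 7.51, and their part in the Pdgfa and Pdgfb values was not tested.

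Vegfa encodes vascular endothelial growth factor A, the main growth factor of blood vessels. The gene (chromosome 17, 46016993 to 46032377, minus strand) had 3226 reads (193 CPM) in macrophages and 1334 reads (107 CPM) in monocytes, a ratio of 1.80 (1.69 to 1.92). The interval lies above 1, but the gene stayed under the 2-fold line at this scaling. Intron reads of Vegfa numbered 445 in macrophages and 515 in monocytes, a ratio of 0.644 (0.566 to 0.733) when scaled by exon read totals. In log2 this is -0.63. The median was -0.73 over the 7696 genes with at least 20 exon reads and 20 intron reads in each library.

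Hgf encodes hepatocyte growth factor, which is secreted as an inactive precursor. It lies on chromosome 5, 16553495 to 16620152, plus strand. It had 508 reads (30.4 CPM) in macrophages and 319 reads (25.6 CPM) in monocytes, a ratio of 1.19 (1.03 to 1.37). Junction reads gave a ratio of 1.57 (1.26 to 1.96) and intron reads 0.430 (0.337 to 0.547). When introns were counted in, the log2 difference turned from 0.24 to -0.07, so the direction for Hgf is not settled by these libraries.

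Markers of stromal and endothelial cells, which are known sources of IGF-1 and HGF, went both ways. Of 9 such markers, 2 were higher, 3 lower, 1 within 2-fold and 3 under 5 CPM, and the list summed to 1013 CPM in macrophages and 1843 CPM in monocytes. After centring 2 were higher and 0 lower. None was at 0 in either library. Col1a1 stood at 447 CPM in macrophages and 919 CPM in monocytes, and Col1a2 at 417 CPM in macrophages and 839 CPM in monocytes. The 2 higher markers were Postn (92.2 CPM in macrophages, 0.802 CPM in monocytes, ratio 115) and Col3a1 (10.9 CPM in macrophages, 0.641 CPM in monocytes, ratio 17.1), in the same direction as Igf1. The part of these cells in the Igf1 and Hgf values was not tested.

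Csf1 encodes macrophage colony-stimulating factor, and its receptor gene Csf1r is a macrophage marker. Csf1 (chromosome 3, 107741048 to 107760469, minus strand) had 836 reads (49.98 CPM) in macrophages and 742 reads (59.5 CPM) in monocytes. The ratio was 0.840 (0.760 to 0.929), close to that of the middle gene of the table. Csf1r stood at 1734 CPM in macrophages and 594 CPM in monocytes, a ratio of 2.92 (2.85 to 2.997). The receptor gene was thus past 2-fold and the ligand gene was not.

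Osm encodes oncostatin M and was the only one of the 8 genes called lower. It lies on chromosome 11, 4236420 to 4241026, plus strand. It had 607 reads (36.3 CPM) in macrophages and 2581 reads (207 CPM) in monocytes, 5.70-fold lower (5.22 to 6.24) in the macrophages. By log2 difference it ranked 413th from the bottom of the 10407 genes. Intron reads numbered 73 in macrophages and 261 in monocytes, and their ratio of 0.209 (0.159 to 0.271) overlaps the exon ratio of 0.175 (0.160 to 0.192). The junction ratio was 0.175 (0.131 to 0.230).

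Neutrophils, eosinophils, basophils and mast cells can make oncostatin M or amphiregulin too, and several of their markers were lower in the macrophage library. Of 7 eosinophil, basophil and mast cell markers, 3 were lower, 3 within 2-fold and 1 under 5 CPM, and the list summed to 370 CPM in macrophages and 2358 CPM in monocytes. In monocytes its highest members were Prg2 (201 CPM in macrophages, 1661 CPM in monocytes) and Epx (9.92 CPM in macrophages, 438 CPM in monocytes). Prss34, second to Prg2 in macrophages, lay within 2-fold (108 CPM in macrophages, 158 CPM in monocytes). Of 8 neutrophil markers, 5 were lower and 3 higher, and they summed to 6124 CPM in macrophages and 18718 CPM in monocytes, led by S100a9 (2268 CPM in macrophages, 5403 CPM in monocytes) and Ngp (844 CPM in macrophages, 5170 CPM in monocytes). The 3 higher ones were Cxcr2 (168 CPM in macrophages, 18.3 CPM in monocytes), Mmp8 (445 CPM in macrophages, 84.2 CPM in monocytes) and Retnlg (366 CPM in macrophages, 134 CPM in monocytes). No marker of either list was at 0. Their part in the values of Osm and Areg was not tested.

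Hbegf and Areg encode heparin-binding EGF-like growth factor and amphiregulin, both made as membrane proteins and released by the protease ADAM17. Areg (chromosome 5, 91139599 to 91148432, plus strand) had 1 read in macrophages and 56 reads in monocytes, and 33 of the 56 monocyte reads spanned a splice junction. That is 0.0598 CPM in macrophages and 4.49 CPM in monocytes, with a ratio of 0.0133 (0.000331 to 0.0773). The monocyte level lay just under the 5 CPM line, so no call was made. Hbegf (chromosome 18, 36504929 to 36515805, minus strand) had 59 reads (3.53 CPM) in macrophages and 55 reads (4.41 CPM) in monocytes, a ratio of 0.800 (0.545 to 1.18). A difference in Hbegf was not detectable at this depth.

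Grn encodes progranulin and had the highest level of the 10 genes in both libraries. The gene (chromosome 11, 102430315 to 102437048, plus strand) had 32244 reads (1928 CPM) in macrophages and 9854 reads (790.0 CPM) in monocytes, a ratio of 2.44 (2.39 to 2.50). Its junction ratio was 2.48 (2.41 to 2.55). Intron reads numbered 703 in macrophages and 830 in monocytes, a ratio of 0.632 (0.570 to 0.699). In log2 this is -0.66, beside the median of -0.73 over the 7696 genes described for Vegfa. Introns took 2.13% of the Grn gene reads in macrophages and 7.77% in monocytes. Fam171a2, on the opposite strand, shares 68 exon bases with Grn and had 15 reads in macrophages and 14 reads in monocytes.

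**Figure D2:**
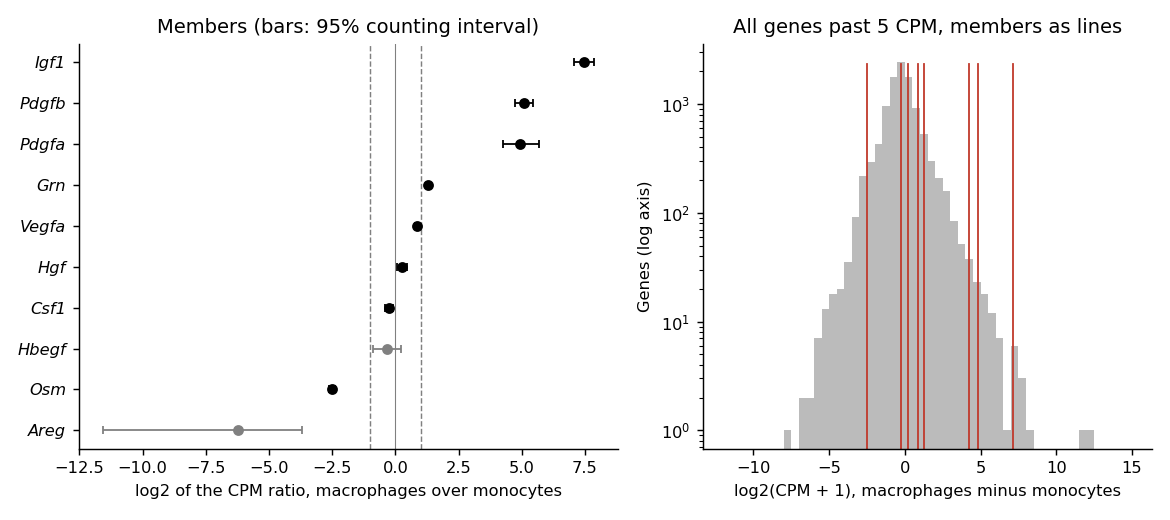
Left, log2 of the CPM ratio of each growth factor gene, macrophages over monocytes, with 95% counting intervals; grey marks the 2 genes under 5 CPM and the dashed lines mark 2-fold. Right, the log2(CPM + 1) difference of all 10407 genes, with the 8 growth factor genes as red lines. Igf1 (7.17), Pdgfb (4.84) and Pdgfa (4.22) stand in the right tail and Osm (-2.48) in the left.

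The split between exon and intron reads was wider for Grn, Vegfa and Hgf than for most genes. Introns took 9.90% of all gene reads in the macrophage library and 14.1% in the monocyte library. Over the 7696 genes with at least 20 exon reads and 20 intron reads in each library, the log2 exon ratio exceeded the log2 intron ratio by a median of 0.47, and the 10th and 90th percentiles were -0.57 and 1.52. This excess was 1.95 for Grn, 1.48 for Vegfa and 1.47 for Hgf, above 95.8%, 89.1% and 88.8% of these genes. Csf1 (0.89) and Pdgfb (0.87) lay nearer the middle, and Osm (-0.25) lay above 18.0% of genes. Igf1, Pdgfa, Hbegf and Areg could not be placed, as at least 1 library held under 20 of their intron reads. For Igf1 and Pdgfa only the monocyte library fell short, with 4 and 14 intron reads. The median log2 ratios of the 7696 genes were -0.25 for exons and -0.73 for introns. The log2 intron ratios of Vegfa (-0.63) and Grn (-0.66) lay near that intron median, and that of Hgf (-1.22) lay below it.

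**Figure D3:**
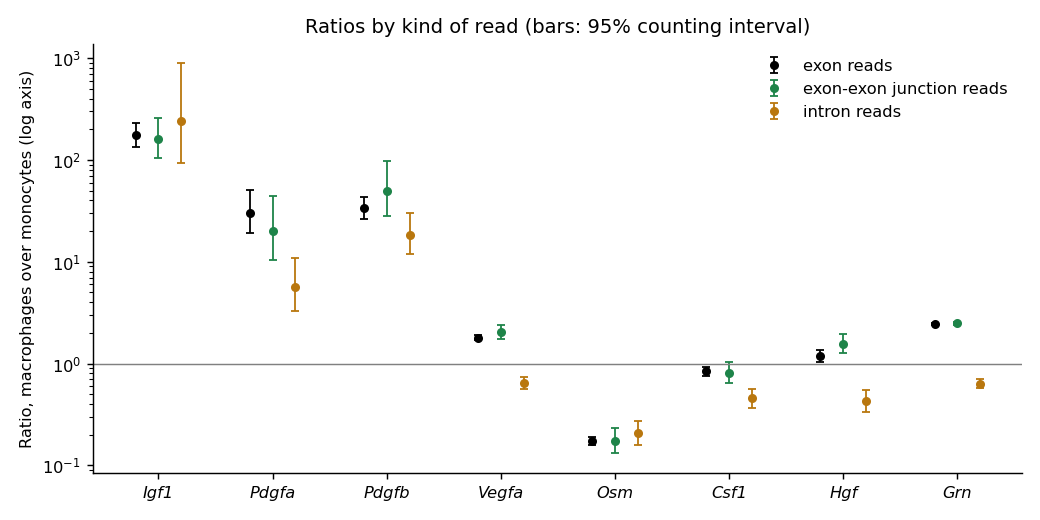
Ratio of macrophages over monocytes on a log axis for exon, exon-exon junction and intron reads of the 8 growth factor genes that reached 5 CPM; bars are 95% counting intervals. Igf1, Pdgfb and Osm show overlapping intervals for all kinds of read. The intron ratios of Vegfa (0.644), Hgf (0.430) and Grn (0.632) lie below 1 beside exon ratios above 1. The median gene also lies below 1 by intron reads, with a log2 ratio of -0.73 over 7696 genes.

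Per length, the order of the growth factors changed between the libraries. In macrophages the authors' RPKM ran from Grn (489) through Igf1 (72.3), Pdgfb (56.1), Vegfa (39.6), Osm (14.1), Pdgfa (13.03), Csf1 (8.34), Hgf (3.72) and Hbegf (1.31) to Areg (0.0433). In monocytes it ran from Grn (191) through Osm (76.5), Vegfa (20.9), Csf1 (9.46), Areg (3.10), Hgf (2.99), Pdgfb (1.59), Hbegf (1.56) and Pdgfa (0.410) to Igf1 (0.394). Igf1 thus stood 2nd of the 10 genes in macrophages and 10th in monocytes, and Osm 5th in macrophages and 2nd in monocytes. The neighbours Osm and Pdgfa in macrophages, and Areg and Hgf, Pdgfb and Hbegf, and Pdgfa and Igf1 in monocytes, did not differ beyond counting error. Grn made up 70.1% of the summed RPKM of the 10 genes in macrophages and 62.0% in monocytes. Igf1 took 10.4% of that sum in macrophages and 0.128% in monocytes, and Osm 2.02% in macrophages and 24.8% in monocytes.

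With 2 libraries, the likeness of a gene's pattern to a growth factor gene can be given only as the distance between their log2(CPM + 1) values. Predicted genes and RIKEN clones were left out of this search. The nearest of the other genes to Igf1 were Stab1 (826 CPM in macrophages, 3.37 CPM in monocytes) and C3ar1 (1091 CPM in macrophages, 5.37 CPM in monocytes). Pdgfb lay nearest to Plxna1 and Cd72, Pdgfa to Trim47 and Slc41a2, Grn to Neat1 and Lamp1, and Osm to Tpx2 and Naaa.

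Of 21 receptor and co-receptor genes for these factors, 6 stayed under 5 CPM. Of the 15 that reached it, 5 were higher in macrophages (against 13.8% of all tested genes), 3 lower (against 19.9%) and 7 within 2-fold. The median log2 difference of the 15 receptor genes was 0.01. After centring 6 were higher, Il6st being the addition, and 3 lower. With a pseudocount of 5 or a floor of 25 CPM only 1 was lower, Met. The higher ones at the scaling used here were the neuropilins Nrp2 (301 CPM in macrophages, 23.4 CPM in monocytes) and Nrp1 (379 CPM in macrophages, 131 CPM in monocytes), which are VEGF co-receptors, Igf2r (377 CPM in macrophages, 39.0 CPM in monocytes), which carries IGF-2 and lysosomal enzymes, Cd9 (790.3 CPM in macrophages, 85.7 CPM in monocytes), a tetraspanin that binds the HB-EGF precursor, and Csf1r. The lower ones were Met, the HGF receptor (33.1 CPM in macrophages, 103 CPM in monocytes), Lifr (4.84 CPM in macrophages, 13.6 CPM in monocytes), and the VEGF receptor gene Flt1 (3.53 CPM in macrophages, 10.4 CPM in monocytes).

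The other receptor genes lay within 2-fold or under 5 CPM, among them those for IGF-1 and the PDGF chains. Igf1r stood at 66.4 CPM in macrophages and 109 CPM in monocytes (ratio 0.608, 0.561 to 0.658), and the insulin receptor gene Insr at 70.1 CPM in macrophages and 69.5 CPM in monocytes. The PDGF receptor genes had few reads, 36 in macrophages and 26 in monocytes for Pdgfra, and 96 in macrophages and 78 in monocytes for Pdgfrb. Kdr, the main signalling receptor of VEGF-A, had 66 reads in macrophages and 44 in monocytes. Of the EGF receptor family, Egfr had 33 reads in macrophages and 4 in monocytes, Erbb2 had 32 in macrophages and 8 in monocytes, and Erbb3 had 73 in macrophages and 67 in monocytes. Erbb4 had 0 exon reads in both. Osmr, an oncostatin M receptor gene, had 32 reads in macrophages and 1 in monocytes. The gene of its partner, Il6st, stood at 192 CPM in macrophages and 111 CPM in monocytes. Sort1, which encodes the sortilin receptor of progranulin, stood at 346 CPM in macrophages and 317 CPM in monocytes, and Cd44, a co-receptor of Met, at 529.5 CPM in macrophages and 871 CPM in monocytes.

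**Figure D4:**
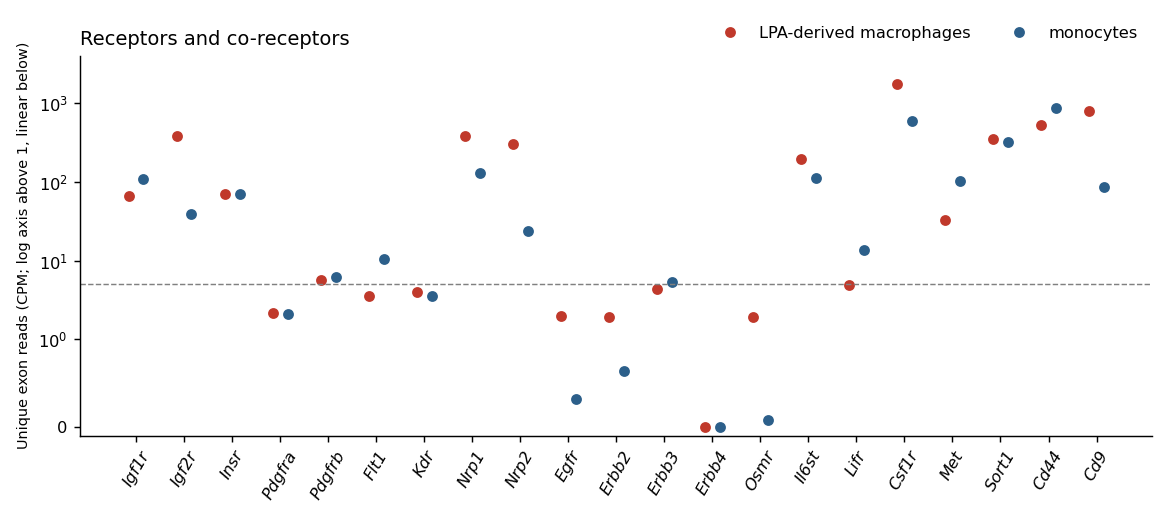
Level of the 21 receptor and co-receptor genes as CPM of unique exon reads, in the macrophage and the monocyte library; the axis is logarithmic above 1 CPM and linear below, and the dashed line is 5 CPM. Igf2r, Nrp1, Nrp2, Csf1r and Cd9 were called higher in macrophages and Flt1, Lifr and Met lower.

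Genes that release, activate or carry these factors went both ways. Of 23, 8 stayed under 5 CPM. Of the 15 that reached it, 5 were higher (against 13.8% of all tested genes), 5 lower (against 19.9%) and 5 within 2-fold. The median log2 difference over the 15 was 0.04. After centring 6 were higher, with Adam17 added, and 4 lower, without St14. With a pseudocount of 5, a floor of 25 CPM or the authors' deposited fold change, 4 were higher and 4 lower. By that deposited fold change Psap (1.32) and Slpi (-1.84) lay within 2-fold. Several concern progranulin, which elastase and proteinase 3 cut into granulins outside the cell, which cathepsin L cuts in lysosomes, and which the inhibitor SLPI protects. Elane stood at 29.4 CPM in macrophages and 1619 CPM in monocytes, Prtn3 at 22.2 CPM in macrophages and 1860 CPM in monocytes, and Slpi at 65.8 CPM in macrophages and 157 CPM in monocytes. Ctsl stood at 2905 CPM in macrophages and 106 CPM in monocytes, and Psap, whose product carries progranulin to lysosomes, at 17763 CPM in macrophages and 5827 CPM in monocytes. The progranulin-cutting proteases were thus split, with both neutrophil-type enzymes lower and the lysosomal one higher in macrophages.

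For HGF, the inhibitor gene Spint2 was lower (3.59 CPM in macrophages, 44.2 CPM in monocytes), as was the activating protease gene St14 (3.83 CPM in macrophages, 8.66 CPM in monocytes), which is only just past 2-fold. Spint1, the gene of a related inhibitor, stayed under 5 CPM with 57 reads in macrophages and 1 read in monocytes (ratio 42.5, 7.33 to 1708). Plau, the urokinase gene, was higher, at 546 CPM in macrophages and 29.3 CPM in monocytes, and so was Mmp9, at 592 CPM in macrophages and 100.3 CPM in monocytes. The sheddase gene Adam17 stood at 254 CPM in macrophages and 139 CPM in monocytes, a ratio of 1.83 (1.73 to 1.94). Rhbdf1, a partner of ADAM17, was called higher from few reads (104 in macrophages, 12 in monocytes), while its relative Rhbdf2 stood at 75.7 CPM in macrophages and 73.6 CPM in monocytes. Furin, which cuts the PDGF and IGF-1 precursors, stood at 167 CPM in macrophages and 238 CPM in monocytes.

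IGF binding proteins hold IGF-1 in the fluid around cells. Of 8 such genes, 3 reached 5 CPM, of which 1 was higher and 2 lower, against 13.8% and 19.9% of all tested genes. At a floor of 25 CPM, 0 were higher and 1 lower. Igfbp4 stood at 114 CPM in macrophages and 249 CPM in monocytes, a ratio of 0.458 (0.432 to 0.485), and Igfbp5 had 19 reads in macrophages and 111 in monocytes. Both were called lower, but Igfbp4 lay within 2-fold after centring. Igfbp7 was called higher, with 205 reads in macrophages and 12 in monocytes. Igfbp1 and Igfbp2 had 0 exon reads in both libraries.

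Other ligands, of the same families or encoded by the Tgfb genes, were mostly low. The most abundant, Tgfb1, stood at 395 CPM in macrophages and 306 CPM in monocytes, within 2-fold. Of 27 such genes, 19 stayed under 5 CPM. Of the 8 that reached it, 2 were higher (against 13.8% of all tested genes), 4 lower (against 19.9%) and 2 within 2-fold. The median log2 difference over the 8 was -0.66. After centring 3 were higher and 4 lower, 4 higher and 4 lower with TMM scaling, 1 higher and 3 lower with a pseudocount of 5, and 0 higher and 2 lower at a floor of 25 CPM. The neuregulin genes Nrg1 and Nrg2, whose products bind ERBB3 and ERBB4, had 23 and 19 reads in macrophages, against 601 and 505 reads in monocytes. They were 35.0-fold and 35.6-fold lower in macrophages (23.1 to 55.7 and 22.6 to 59.7). Lif and Il6, relatives of Osm, were lower too, Lif with 57 reads in macrophages and 201 in monocytes and Il6 with 28 reads in macrophages and 95 in monocytes. Clcf1, another relative of Osm, was higher instead, with 363 reads in macrophages and 83 in monocytes. Pdgfc, which encodes another PDGF chain, was also higher, with 142 reads in macrophages and 25 in monocytes. Igf2 had 1 read in macrophages and 0 in monocytes. Of the ligands of CSF1R, Il34 had 4 reads in macrophages and 0 in monocytes, so that Csf1 held nearly all reads of that pair.

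Markers of the remaining marrow cells were few or lower in the macrophage library. Of 6 erythroid markers, 5 were lower and 1 under 5 CPM, and they summed to 4.54 CPM in macrophages and 117 CPM in monocytes. Hbb-bs and Slc4a1 had 0 reads in macrophages, against 447 and 482 reads in monocytes. Of 7 markers of B, T and NK cells, 2 were lower and 5 under 5 CPM, and they summed to 4.66 CPM in macrophages and 120.5 CPM in monocytes, led by Nkg7 (1.49 CPM in macrophages, 107 CPM in monocytes) and Cd79a (0.897 CPM in macrophages, 6.17 CPM in monocytes).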

How the data were processed

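The authors deposited 1 table of 47643 genes for 2 libraries, made from Trizol RNA with a NEBNext Ultra kit per the labels' protocols. Per the file headers it gives, for each library, read counts per gene, exon, intron and exon-exon junction, and RPKM values; the counts in the columns headed unique were used, and total exon reads only as an alternative. The RPKM values deposited equal exon reads over exon length and 1 total per library (0 genes off by more than 1%). The authors' deposited normalized signal has the same sorted values in both libraries, and their deposited fold change, a signed score (minus where monocytes are higher), is its ratio. Exon length, annotated and detected transcript numbers are as deposited. The sources used here do not name the mapper, its filters or whether strand was used, which leaves reads of antisense and overlapping genes uncertain. The submitters' processing notes name mm9, but the coordinates are of GRCm38: 40773 of 47224 identifiers found in GENCODE M21 (86.3%) have the same position, once 1 is added to the deposited starts, which count from 0.

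Unique exon reads were scaled to CPM by the library's sum. The thresholds were 5 CPM in at least 1 library and a log2(CPM + 1) difference of 1. With 1 library per group there is no test and no p-value. Intervals are 95% exact conditional (Clopper-Pearson) or Poisson intervals, and cover counting error only, as PCR copies cannot be told from separate molecules. The calculation was tested on simulated data. Receptor, processing, binding protein, related ligand and marker lists were tallied as counts. All receptors, every gene of the processing, binding protein and related ligand lists past the thresholds and the 2 markers of each marker list with the highest level in either library are named; other genes named from them were chosen after their values were seen. The genes and lists were chosen with earlier results of these data known. Promoter windows (250 bases before each start) came from RefSeq on GRCm38.p6. TMM factors were computed with edgeR 4.0.16 in R 4.3.3; the rest used Python 3.11.15, pandas 2.3.3 and SciPy 1.17.1. Alternatives were other pseudocounts, floors, scalings and kinds of read.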

Additional observations from a re-analysis of the deposited data

How the results depend on the processing

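No paired analysis was possible because each group has 1 library. Over 11 alternatives, Igf1, Pdgfa, Pdgfb and Grn stayed higher by 2-fold and Osm lower by 2-fold, with log2 differences of 6.41 to 7.53, 2.97 to 4.53, 4.18 to 5.07, 1.18 to 1.52 and -2.50 to -2.17. Vegfa was on the same side of 2-fold in 9 of 11 and passed it after centring (1.08) and with TMM scaling (1.06), where 5 growth factor genes were higher. The number of lower genes was 2 without a floor and 2 at a floor of 1 CPM, where Areg entered, and the median of the growth factor genes was then 0.54 and 0.54. The log2 difference of Areg itself ran from -7.21 by the authors' deposited fold change to -0.91 with a pseudocount of 5, which is within 2-fold. The median of the growth factor genes was 1.30 after centring, 1.28 with TMM scaling, 1.22 without the top 20 genes in the totals and 0.95 with gene reads. At a floor of 25 CPM, 880 of all genes were higher, since fewer genes entered. Hgf kept its sign in 10 of 11 alternatives and was -0.07 with gene reads, which add its intron reads. Total exon reads equal the unique ones in every gene, and a changed floor does not enter a gene's log2 difference. These settings are among the 11 but could not move any single gene, so their agreement was fixed in advance. Depth limits Hbegf and Areg, at 1 to 59 reads, and the monocyte side of Igf1, Pdgfa and Pdgfb, at 19 to 69 reads. No replicate shows how far any of these values would vary between mice or cultures.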
